A study of Mus musculus with 2 samples.

Results

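Cassette exons are internal exons that a transcript can either hold or splice out, and those described here have a length divisible by 3, so that adding or removing the exon leaves the reading frame downstream as it was. They were counted in the gastrocnemius, the main calf muscle, by long-read RNA-seq. The mice were B6CASTF1/J females, first-generation hybrids of the inbred strains C57BL/6J and CAST/EiJ, at an age of 14 days. The data are 2 libraries labelled as biological replicates 1 and 2, each from 2 µg of RNA, and all results concern this 1 group, with no second condition. The labels describe the tissue of replicate 1 as taken from 3 females and that of replicate 2 as from a female, and give both the same donor entry, so how many animals stand behind a library is not certain. Each read was assigned by the authors to a transcript model, so a model's exon chain and its read count show which exons were joined in the same molecule.

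An exon was a member if it was an internal exon of a model in an annotated gene, had a length that is a multiple of 3, had at least 20 informative reads over both libraries, and was held by 10 to 90% of those reads. An informative read either splices into and out of the exon (inclusion) or has a junction that joins a site upstream with a site downstream that are otherwise joined to the exon (skipping). Inclusion is the percent of informative reads that hold the exon. By this rule 810 exons in 601 genes were members, of 50183 internal exons with at least 20 informative reads in 5671 genes. Another 547 exons fell in the same window of inclusion with a length that is not a multiple of 3. The members were chosen by their measured inclusion and by length, so these values describe them and are not tested.

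As background, the spliceosome recognises short sequences at both ends of an exon, and RNA-binding proteins that differ between tissues and ages shift how often weak exons are used. Skeletal muscle is known for a large programme of such exons, many of them short, in genes of the sarcomere, of the membrane folds that couple excitation to contraction, and of membrane trafficking, and many switch in the first weeks after birth. An exon that keeps the frame adds or removes a stretch of amino acids within the protein, whereas an exon of another length changes every codon after it.

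A few members show what the rule finds at the level of sequence. The sequences are those of the spliced transcripts of GENCODE M21 on GRCm38 (mm10), the annotation and build of the files, written 5′ to 3′ along the gene. In this first set capitals mark bases of a codon that is split across a splice junction at either end, so an exon without capitals holds whole codons only. They are examples of short exons, most of them in genes of muscle structure or signalling. Their depth varies: the Mef2a exon had 38 informative reads in replicate 1 and 14 in replicate 2.
Dnm2 12 bases, chr9:21490658-21490669 (plus strand): ggggagatcttg
Anxa6 18 bases, chr11:54987051-54987068 (minus strand): gtggctgctgagatcttg
Dctn1 21 bases, chr6:83187764-83187784 (plus strand): accacaactcgacggcccaag
Mef2a 24 bases, chr7:67244521-67244544 (minus strand): tcggaggaagaggaattggagttg
Ppp3ca 30 bases, chr3:136932011-136932040 (plus strand): CTactgttgaggctattgaggctgatgaaG
Trdn 30 bases, chr10:33433701-33433730 (plus strand): AGccacaactaaaaaacgaagagaagtcaA
Fermt2 33 bases, chr14:45476418-45476450 (minus strand): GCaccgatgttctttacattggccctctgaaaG
Mybpc1 42 bases, chr10:88582007-88582048 (minus strand): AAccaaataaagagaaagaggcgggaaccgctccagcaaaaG
Nexn 42 bases, chr3:152249660-152249701 (minus strand): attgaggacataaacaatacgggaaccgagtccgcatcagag
Gnas 45 bases, chr2:174336747-174336791 (plus strand): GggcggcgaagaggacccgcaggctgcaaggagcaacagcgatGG
Tecr 45 bases, chr8:83573411-83573455 (minus strand): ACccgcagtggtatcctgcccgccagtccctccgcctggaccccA
Mlf1 45 bases, chr3:67390978-67391022 (plus strand): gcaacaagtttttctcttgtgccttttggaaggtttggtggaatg
Trdn 48 bases, chr10:33343076-33343123 (plus strand): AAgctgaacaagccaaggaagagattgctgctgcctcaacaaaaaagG
In the Mybpc1, Ppp3ca, Trdn, Fermt2 and Tecr exons the upstream exon gives 1 base of the first codon, so 2 capitals open the exon and 1 closes it. In the Gnas exon the upstream exon gives 2 bases. The Dnm2, Anxa6, Dctn1, Mef2a, Nexn and Mlf1 exons hold whole codons.

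A length divisible by 3 does not by itself keep a protein's end the same. Each annotated exon was placed by a single annotated transcript, with protein-coding transcripts and coding placements preferred. In that transcript 30 members (3.70%) held the stop codon. Members that hold a stop codon only in another transcript are not counted, and the 106 members not in GENCODE M21 were not checked. Capitals mark in-frame stop codons in the next sequences. Skipping such an exon moves the end of the protein to a later exon.
Myl6 45 bases, chr10:128491720-128491764 (minus strand): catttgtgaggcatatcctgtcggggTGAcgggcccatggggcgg
Slmap 90 bases, chr14:26416203-26416292 (minus strand): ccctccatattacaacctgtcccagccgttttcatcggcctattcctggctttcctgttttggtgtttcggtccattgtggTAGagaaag
Rps24 18 bases, chr14:24494052-24494069 (plus strand): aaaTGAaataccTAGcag

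The largest run of members in a single gene was in Neb, which encodes nebulin, the giant protein that lies along the thin filament and is built from repeats of short actin-binding modules. Of its 9 members, 6 were exons of 93 bases that follow each other as exons 146 to 151 of the 157 of the reference transcript, all with whole codons. They are shown in order along the gene.
Neb exon 146, chr2:52157832-52157924 (minus strand): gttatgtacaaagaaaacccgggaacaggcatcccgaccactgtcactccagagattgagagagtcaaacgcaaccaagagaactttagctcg
Neb exon 147, chr2:52157291-52157383 (minus strand): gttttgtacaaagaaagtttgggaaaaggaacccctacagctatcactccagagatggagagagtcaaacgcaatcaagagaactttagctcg
Neb exon 148, chr2:52153056-52153148 (minus strand): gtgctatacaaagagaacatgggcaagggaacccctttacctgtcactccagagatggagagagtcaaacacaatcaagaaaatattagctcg
Neb exon 149, chr2:52151364-52151456 (minus strand): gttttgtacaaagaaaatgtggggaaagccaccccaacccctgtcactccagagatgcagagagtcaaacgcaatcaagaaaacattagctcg
Neb exon 150, chr2:52150967-52151059 (minus strand): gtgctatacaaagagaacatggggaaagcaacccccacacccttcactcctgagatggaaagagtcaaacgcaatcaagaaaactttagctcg
Neb exon 151, chr2:52150537-52150629 (minus strand): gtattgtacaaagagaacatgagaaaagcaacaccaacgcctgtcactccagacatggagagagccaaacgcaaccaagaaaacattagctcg
Compared base by base at the same position, the 15 pairs among these 6 exons were 76.3 to 87.1% identical, with a median of 82.8%. The least alike were exons 146 and 148 and the most alike were exons 147 and 149. With copies this alike, a read with errors could be placed on a neighbouring copy, which the deposited counts cannot show.

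The libraries held 1316937 reads in replicate 1 and 1204188 in replicate 2, of which 1248854 and 1106450 were in annotated genes. The models that the spliced reads were assigned to were longer in replicate 1 (median 2063 bases, weighted by reads) than in replicate 2 (1429 bases). All 8 fixed markers of muscle fibres had reads in both libraries, with a summed level of 320665 and 271885 CPM. CPM are reads scaled to 1000000 reads in annotated genes of each library. Both liver markers, Alb and Ttr, were at 0. Of the 3 heart markers Nppa was at 0, Myh6 had 9 and 2 reads and Tnni3 had 0 and 1, with a summed level of 7.21 and 2.71 CPM. The 4 Schwann cell markers summed to 319.5 CPM in replicate 1 and 1873 CPM in replicate 2, and the 4 fibroblast markers to 7918 and 3398 CPM. The part of these differences in the values below was not tested, and in whole tissue fewer cells of a type and less RNA per cell cannot be told apart.

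The members' informative reads came to 55143 in replicate 1 and 26470 in replicate 2. A member had 20 to 5924 informative reads with a median of 47. There were 384 members with at least 50 reads, 177 with at least 100 and 6 with at least 1000. Pooled inclusion had a median of 57.9%. It was 10 to 30% in 214 members, 30 to 50% in 134, 50 to 70% in 176 and 70 to 90% in 286. In 730 members each library had both inclusion and skipping reads, and in 620 inclusion was within the window in each library taken alone. At the lower limit Nfu1 (219 bases, 10%) and Nkiras1 (258 bases, 10.3%) were just inside, and exons of Mybpc1 (54 bases, 9.86%) and Mbnl2 (54 bases, 9.57%) just outside. At the upper limit Clint1 (75 bases, 89.5%) and Ube2v2 (126 bases, 89.4%) were just inside, and exons of Ndufa5 (117 bases, 90.2%) and Nrap (105 bases, 90.2%) just outside.

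The rule also admits exons that differ from a much more used exon only at an end. In 27 genes, 35 members overlapped another internal exon of the gene with more reads than the member's own informative reads, and 26 of these 35 were not in GENCODE M21. They include 5 members of Atp2a1, the calcium pump of fast fibres, and 4 of Ckm, muscle creatine kinase, and had a median of 28 reads. Without them 775 members in 580 genes remained, with a median inclusion of 58.1%. Among all members, 39 had fewer than 50% of their skipping reads on a junction between sites that at least 10% of the exon's own reads used on each side. In 18 of these none of the skipping reads was on such a junction, among them the Mybpc1 exon of 39 bases, the Smtn exon of 63 bases and a pair of Lrrfip1 exons described below. Counting only skipping between such main sites gave 777 in-frame cassette exons, 776 of them members.

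Among all 1357 cassette exons, 59.7% had a length divisible by 3 (95% Wilson interval 57.1 to 62.3%). The share was 39.5% (39.1 to 40%) among 46405 exons included above 90% and 38.7% (36.8 to 40.7%) among 2421 exons included below 10%. The intervals cover the counting of exons only, and exons of a gene are not independent. Counted in replicate 1 alone the share was 63.7%, and in replicate 2 alone 59.9%. The share differed with where the exon lies. Among coding cassette exons it was 74.5% (71.3 to 77.4%, 584 of 784), against 39.9% of coding exons included above 90%. Coding here leaves out exons that hold a start or stop codon, which raises the cassette share. Of members 2.22% held a start codon and 3.70% a stop codon, against 8.59% and 9.32% of cassette exons of other lengths. Among cassette exons in untranslated regions the share was 35.95% (28.8 to 43.8%, 55 of 153). It was 31.0% (25.8 to 36.7%) among untranslated exons included above 90%, and these intervals overlap. Cassette exons that GENCODE M21 does not list lay between, at 45.9% (39.6 to 52.3%, 106 of 231). Unlisted exons were at 32% (26.8 to 37.7%) when included above 90% and at 37.7% (35.5 to 39.9%) when included below 10%. Coding exons included below 10% were few, and 70% (61.6 to 77.2%, 91 of 130) had a length divisible by 3.

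**Figure D1:**
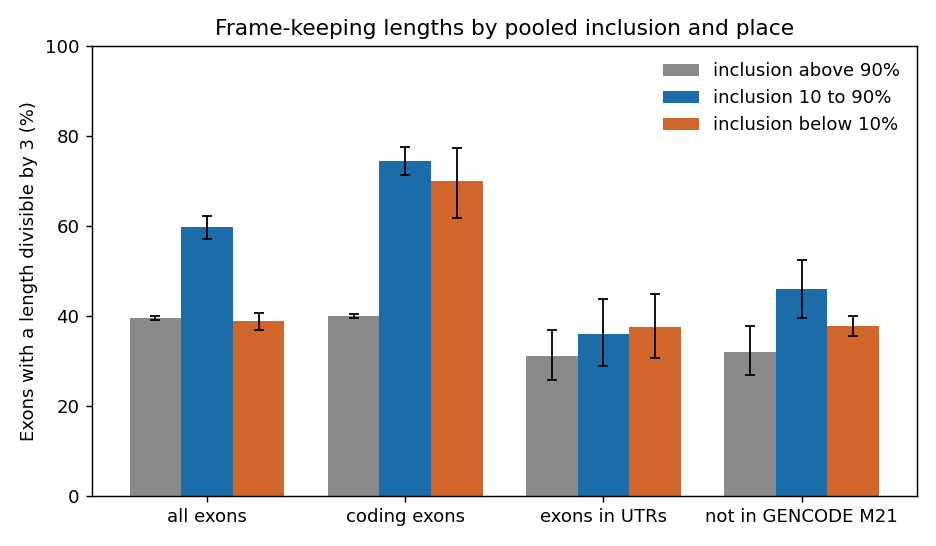
Percent of exons with a length divisible by 3 (y axis) for exons included above 90%, 10 to 90% and below 10% of informative reads, over all exons and by their place in GENCODE M21; bars are shares and error bars 95% Wilson intervals. Coding cassette exons stand at 74.5% and coding exons included above 90% at 39.9%, while the bars for untranslated exons overlap within their intervals.

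Places are those in the single annotated transcript used for each exon. By place, 584 members (72.1%) were coding throughout, 49 lay in 5′ untranslated regions and 6 in 3′ untranslated regions. A start codon was held by 18 and a stop codon by 30, and 17 lay in noncoding transcripts. The other 106 (13.1%) were not in GENCODE M21. Both the exon and a junction skipping it were annotated for 617 members. For 87 members the exon was annotated and the skipping was not, for 79 the reverse, and for 27 neither was. Coding members had a median inclusion of 61.8%, members in 5′ untranslated regions 44.1%, those that hold a stop codon 38.1% and unannotated members 35.6%.

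The frame in which a coding member sits was not used by the rule. Of 534 coding members whose frame the annotation gives, 244 (45.7%, Wilson interval 41.5 to 49.9%) began with a whole codon, 190 (35.6%) after 1 base of a codon and 100 (18.7%) after 2 bases. Among 17524 coding exons of a length divisible by 3 included above 90%, 63.0% (62.3 to 63.8%) began with a whole codon, 24.4% after 1 base and 12.6% after 2 bases. An exon counted as coding only by the annotated transcript used to place it. It had to lie within that coding sequence and hold no start or stop codon of that transcript. That none of the 534 had an in-frame stop codon, and 3 of the 17524 did, therefore follows from this definition and is not a finding. Members lay in every part of the coding sequence, with 85, 103, 124, 127 and 95 of the 534 from its first to its last stretch of 20%.

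Members were short. Their median length was 87 bases (quartiles 54.8 and 132), compared with 106 bases for cassette exons of other lengths and 117 bases for exons of a length divisible by 3 included above 90%. Exons of at most 30 bases, often called microexons, made up 53 members (6.54%, Wilson interval 5.04 to 8.46%), against 2.56% (1.53 to 4.25%) of other cassette exons and 0.812% (0.692 to 0.953%) of the exons included above 90%. The shortest were the Dnm2 exon shown above and an exon of Agap1, an Arf GTPase-activating protein, with 12 bases each, and the longest was an exon of Tacc2 with 5121 bases. The 31 members over 300 bases also include exons of Map4 (3180 bases), Zfp106 (2169 bases) and Ythdf3 (1599 bases). The introns before and after members had medians of 1721 and 1913 bases. Around cassette exons of other lengths they were 2080 and 1833 bases, and around the exons included above 90% 1063 and 938 bases. Base composition was close, with a median G+C content of 50.8% in members and 51.9% in the exons included above 90%, and 79.8% against 80.7% ended in G. These differences were not tested.

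**Figure D2:**
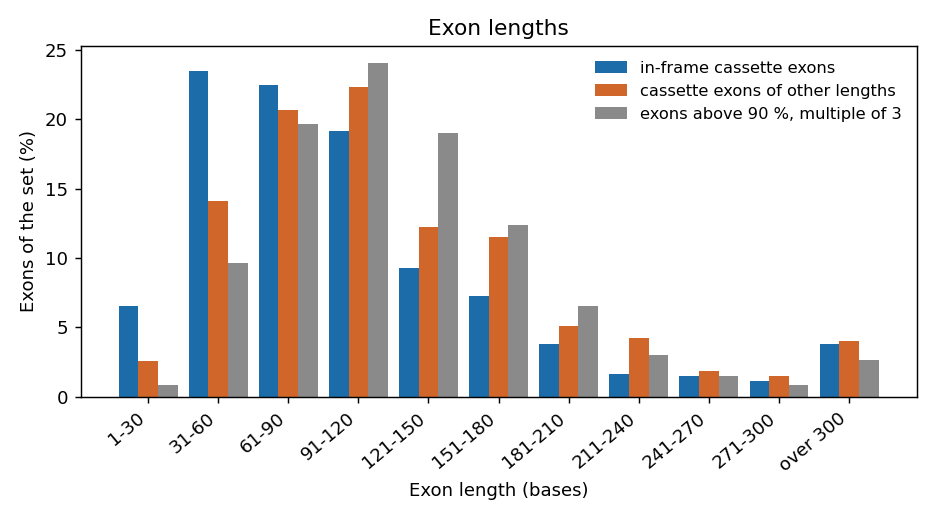
Percent of each set of exons (y axis) in bins of exon length in bases (x axis) for the in-frame cassette exons, the cassette exons of other lengths, and the exons of a length divisible by 3 that were included above 90%. The in-frame cassette exons are the most frequent set in both bins up to 60 bases.

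Among exons of the thick filament, the most deeply read were those of Mybpc1, slow myosin-binding protein C, which binds myosin and actin near its N terminus. The 42-base exon shown above, exon 3 of 29, was held by 2063 of 2386 reads (86.5%) in replicate 1 and by 420 of 485 (86.6%) in replicate 2. A 39-base exon 6126 bases further along the gene, at chr10:88575842-88575880 and absent from GENCODE M21, was held by 1628 of 2382 reads (68.3%) in replicate 1 and 304 of 485 (62.7%) in replicate 2. Both exons differed by less than 6 points between the libraries. The 39-base exon did not act alone. In 1922 of the 1932 reads that hold it, it was followed by an unannotated exon of 36 bases at chr10:88575129-88575164, and the 935 skipping reads left out both by 1 junction. Only 10 reads held the 39-base exon without the 36-base exon and 15 the reverse. What these reads choose is thus a block of 75 bases, a length also divisible by 3. The sequence of this unannotated block was not used, so it was not checked for stop codons.

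Ttn, titin, the elastic filament that spans the sarcomere, had a 303-base member next to its last exon (exon 311 of 312) that was held by 68 of 107 reads (63.6%) and 35 of 59 (59.3%). Over full splice chains alone, without incomplete models, pooled inclusion of this Ttn exon was 19.0% of 58 reads. Trim55, a ubiquitin ligase of the M band also called MuRF2, held its 288-base exon in 50 of 56 and 38 of 46 reads (89.3% and 82.6%). The 2 members of Myh4, the fast myosin heavy chain 2B, 99 and 144 bases that begin at the same base, had no informative read in replicate 2.

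On the thin filament, the 105-base exon 12 of Nrap, a nebulin-related anchoring protein, was held by 167 of 245 reads (68.2%) in replicate 1 and 56 of 70 (80%) in replicate 2. Within Neb, exon 149 was held by 58 of 72 reads (80.6%) and 17 of 21 (81.0%). The neighbouring exon 151 was held by 41 of 64 reads (64.1%) and 10 of 24 (41.7%), and exon 150 by 33 of 60 (55.0%) and 8 of 20 (40%). The other 6 Neb members had pooled inclusion of 32.4 to 65.4% and at most 17 reads in replicate 2. The values of these 6 therefore rest mainly on replicate 1. Counting only skipping between the sites that an exon mainly uses, exon 150 went from 51.2% to 87.2% pooled (6 of its 39 skipping reads) and exon 147 from 32.4% to 84.6% (2 of 23), while exons 149 and 151 did not change. Tnnt3, fast troponin T, is known for many alternative exons but gave 1 member, of 39 bases, with 2 of 12 and 1 of 15 reads.

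At the Z disc and the actin scaffold, the 42-base exon of Nexn, the Z disc protein nexilin, was mostly left out: 38 of 299 reads (12.7%) held it in replicate 1 and 29 of 159 (18.2%) in replicate 2. Palld, palladin, was the reverse, with its 51-base exon in 54 of 65 and 23 of 26 reads (83.1% and 88.5%). Smtn, smoothelin, held a 63-base exon in 67 of 183 reads (36.6%) and 26 of 113 (23.0%), with none of its skipping reads between the sites that the exon mainly uses. Fermt2, kindlin-2, an integrin activator of the muscle attachment, had 3 members of 33, 24 and 21 bases, of which the latter 2 are not in GENCODE M21. The 33-base exon was held by 70 of 101 and 32 of 51 reads (69.3% and 62.7%) and the 21-base exon by 66 of 105 and 32 of 54 (62.9% and 59.3%), while the 24-base exon was held by 17 of 66 and 7 of 32 (25.8% and 21.9%). Zyx (zyxin, 93 bases, 84.5% of 58 reads), Tln2 (talin 2, 120 bases, 69.0% of 71 reads) and Vcl (vinculin, 204 bases, 45.6% of 57 reads) also had members. The unannotated 204-base Vcl exon lies in a gene whose muscle isoform, metavinculin, is known to add an exon.

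The member with the most reads belongs to Srl, sarcalumenin, a calcium-binding protein of the sarcoplasmic reticulum. Its exon 2 of 7, 1311 bases at chr16:4496405-4497715, is known to separate long sarcalumenin from a shorter glycoprotein made from the same gene. It was held by 1395 of 4712 reads (29.6%) in replicate 1 and by 211 of 1212 (17.4%) in replicate 2. Among other genes of the triad, where the transverse tubule meets the sarcoplasmic reticulum, Bin1, which bends the tubule membrane, held its 72-base exon 16 in 582 of 1003 reads (58.0%) and 341 of 566 (60.2%). Trdn, triadin, an anchor of the calcium release channel complex, held its 48-base exon 20 in 183 of 215 and 124 of 149 reads (85.1% and 83.2%), and its 30-base exon 24 in 48 of 112 and 33 of 62 (42.9% and 53.2%). The skipping of neither Trdn exon is annotated. An unannotated 180-base exon of Asph, whose transcripts encode aspartyl hydroxylase, junctin and junctate, was held by 59 of 409 and 48 of 264 reads (14.4% and 18.2%).

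Dnm2, dynamin 2, a membrane-cutting GTPase, had 3 members. The 12-base exon was held by 17 of 83 reads (20.5%) in replicate 1 and 2 of 35 (5.71%) in replicate 2, and a 30-base exon by 34 of 81 (42.0%) and 15 of 35 (42.9%). Dysf, dysferlin, needed for membrane repair, also had 3, of which the 42-base exon 17 was held most (31 of 34 and 13 of 15 reads, 91.2% and 86.7%). Its 63-base exon was held by 4 of 41 and 5 of 23 reads (9.76% and 21.7%) and its 93-base exon by 3 of 32 and 4 of 15 (9.38% and 26.7%). Itgb1, integrin beta 1, held an 81-base exon with a stop codon in 100 of 262 and 41 of 92 reads (38.2% and 44.6%). Alternative splicing of Itgb1 is known to change the cytoplasmic tail of the receptor.

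**Figure D3:**
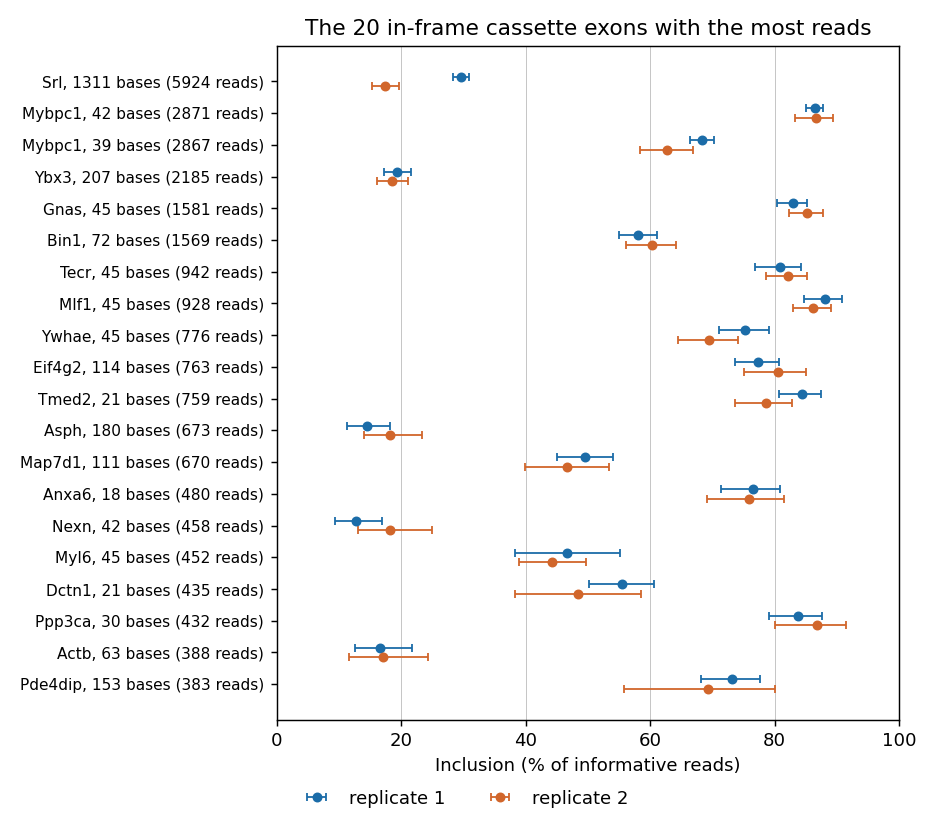
Inclusion in percent of informative reads (x axis) of the 20 in-frame cassette exons with the most informative reads, in replicate 1 and replicate 2; points are shares and error bars 95% Wilson intervals, and the reads of both libraries are given beside each name. The intervals of the 2 libraries overlap for every exon but the 1311-base exon of Srl.

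Among genes of signalling, Gnas, the stimulatory G protein alpha subunit, held its 45-base exon, known to separate a long from a short form, in 785 of 946 reads (83.0%) and 541 of 635 (85.2%). Ppp3ca, the catalytic subunit of calcineurin, held the 30-base exon 13 of 14 in 248 of 296 and 118 of 136 (83.8% and 86.8%). Among the calcium/calmodulin kinases, Camk2d was at 90% and 87.2% over its 60-base exon and at 30.6% and 32.4% over its 42-base exon. Camk2b (75 bases) was at 78.7% and 82.1%, but 1 of its 24 skipping reads joins the sites that the exon mainly uses, and by those sites it was at 98.9% pooled. The 3 members of Camk2g had pooled values of 77.4% (69 bases), 27.2% (63 bases) and 18.3% (33 bases). Phka1, a regulatory subunit of phosphorylase kinase, held its 177-base exon 19 in 158 of 220 and 39 of 47 reads (71.8% and 83.0%). Ywhae, a 14-3-3 protein, had an unannotated 45-base exon in 323 of 429 and 241 of 347 reads (75.3% and 69.5%). At Pde4dip, myomegalin, 3 members of 153, 102 and 99 bases have 1 boundary in common and 105 skipping reads each, so their values (72.6%, 68.5% and 64.8% pooled) are not independent.

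Genes of trafficking and of mitochondrial shape gave the most members of any list, 42 in 21 genes. Mff, the receptor that recruits the fission GTPase to mitochondria, held its 60-base exon in 137 of 154 and 93 of 105 reads (89.0% and 88.6%), its 159-base exon in 109 of 146 and 74 of 98 (74.7% and 75.5%), and its 75-base exon in 80 of 136 and 52 of 94 (58.8% and 55.3%). A 33-base exon was held by 13 of 133 reads (9.77%) and 19 of 90 (21.1%). Counting only skipping between the sites that an exon mainly uses, pooled inclusion was 83.6% for the 159-base and 69.1% for the 75-base exon. It was 16.4% for the 33-base and 88.8% for the 60-base exon. Dnm1l, the GTPase that Mff recruits, had members of 39, 78 and 33 bases at 35.2%, 35.1% and 10.8% pooled. Opa1, which fuses inner membranes, held a 54-base exon in 39 of 119 and 3 of 23 reads (32.8% and 13.0%) and a 111-base exon in 72 of 118 and 9 of 22 (61.02% and 40.9%). Dctn1, the largest subunit of dynactin, held the 21-base exon shown above in 191 of 344 and 44 of 91 reads (55.5% and 48.4%). Tmed2, a cargo receptor between endoplasmic reticulum and Golgi, held a 21-base exon in 384 of 455 and 239 of 304 (84.4% and 78.6%). Clta, clathrin light chain A, held a 36-base exon in 13 of 42 and 15 of 35 (31.0% and 42.9%).

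Among regulators of RNA, Hnrnpa2b1 held a 120-base exon in 156 of 214 and 77 of 123 reads (72.9% and 62.6%), Hnrnpd a 147-base exon in 36 of 71 and 31 of 59 (50.7% and 52.5%), and Puf60, a splicing factor, a 51-base exon in 110 of 179 and 72 of 116 (61.5% and 62.1%). Mef2a, a transcription factor of muscle differentiation, held the 24-base exon shown above in 32 of 38 and 11 of 14 reads (84.2% and 78.6%). Nfix, a factor of the switch from embryonic to fetal muscle genes, held its 123-base exon in 52 of 138 and 19 of 52 (37.7% and 36.5%). In the matrix genes, Fbln2, fibulin 2, held a 141-base exon in 59 of 153 and 16 of 39 (38.6% and 41.0%), and both Fn1 members, of 273 and 270 bases, had at most 6 reads in replicate 2. The metabolic list gave 7 members, of which 5 were end variants of a more used exon, 4 of them in Ckm.

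Of the members with a stop codon, the 45-base exon of Myl6, nonmuscle and smooth muscle essential light chain, was held by 61 of 131 reads (46.6%) in replicate 1 and 142 of 321 (44.2%) in replicate 2. Slmap, a tail-anchored protein of the sarcolemma, held its 90-base exon in 51 of 80 and 25 of 35 reads (63.8% and 71.4%), and Bnip3l, a mitophagy receptor, a 42-base exon in 74 of 122 and 55 of 93 (60.7% and 59.1%). Nap1l4 (36 bases) was at 18.7% and 17.1%, and Klc1, kinesin light chain 1 (51 bases), at 17.3% and 16.7%. The 18-base Rps24 exon was held by 12 of 18 and 33 of 52 reads (66.7% and 63.5%) and overlaps a more used exon.

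Outside the lists, deeply read members included exons of Ybx3, a cold shock domain RNA-binding protein (207 bases, 249 of 1287 and 166 of 898 reads, 19.3% and 18.5%), and of Tecr, the last enzyme of very long chain fatty acid elongation (45 bases, 341 of 422 and 427 of 520, 80.8% and 82.1%). Mlf1 held its 45-base exon in 383 of 435 and 425 of 493 reads (88.0% and 86.2%). Anxa6, annexin 6, a calcium-dependent membrane-binding protein, held its 18-base exon in 231 of 302 and 135 of 178 (76.5% and 75.8%). Map7d1, a microtubule-binding protein, was near equal use, with 231 of 466 and 95 of 204 reads (49.6% and 46.6%) over its 111-base exon.

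By list, 95 of the 296 listed genes with a measured internal exon had at least 1 member (32.1%), beside 601 of 5671 genes in all (10.6%). The lists were written with results of these data in view and include genes known for alternative exons, so this gives no independent sign of enrichment. The share of genes was 56.8% for trafficking (21 of 37), 53.8% for signalling (14 of 26), 35.3% for transcription factors (6 of 17), 30.4% for the thick filament (7 of 23), and 30% for both the thin filament (6 of 20) and the triad (12 of 40). It was 27.0% for the Z disc (10 of 37), 25% for splicing regulators (10 of 40), 22.7% for the matrix (5 of 22) and 11.8% for metabolism (4 of 34). Median pooled inclusion, beside 57.9% over all members, ranged from 32.6% for the matrix and 37.1% for the triad to 72.5% for signalling.

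The 2 libraries were compared exon by exon with Fisher's exact test (two-sided) where each had at least 20 informative reads. The test compares the reads of these libraries and covers counting error only. A call needed a Benjamini-Hochberg adjusted p below 0.05 over all 23571 internal exons tested and a difference of at least 10 points. There were 306 members that could be tested, and 1 was called, the Srl exon (Fisher's exact test, adjusted p = 1.01e-14). The 0.327% of members called stands beside 0.541% of cassette exons of other lengths (1 of 185), 0.407% of cassette exons of any length (2 of 491) and 0.00849% of all internal exons tested (2 of 23571). At an unadjusted p under 0.05, 30 of the 306 members (9.80%), 12 of the 185 other cassette exons (6.49%), 42 of the 491 cassette exons of any length (8.55%) and 87 of all internal exons tested (0.369%) differed. Another 504 members had too few reads in a library for the test. Most measured internal exons (46405 of 50183) were included above 90%, where a difference of 10 points is rarely possible. The low shares over all internal exons tested thus follow largely from the window, and the other cassette exons are the closer comparison.

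The median absolute difference of the tested members was 6.0 points. In 222 it was within 10 points and in 24 at least 20 points. Inclusion was higher in replicate 1 for 164 and in replicate 2 for 139. Across the 306 exons Pearson's r between the libraries was 0.917 and Spearman's rho 0.904, as a description of exons that share libraries and, within a gene, reads. The widest differences were in exons with few reads: an 84-base exon of Mlip, a lamin-interacting protein of muscle, had 29 of 31 reads in replicate 1 and 10 of 21 in replicate 2 (Fisher's exact test, adjusted p = 0.643). An 81-base exon of Tpm1, alpha-tropomyosin, had 2 of 27 and 17 of 34 (Fisher's exact test, adjusted p = 1) and overlaps a more used exon. Adjusted over the 491 cassette exons alone, the exact test called 4 members, the Srl exon, these exons of Mlip (adjusted p = 0.0191) and Tpm1 (adjusted p = 0.0325) and an 822-base exon of Txnl1, a thioredoxin-like protein (adjusted p = 0.0324).

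**Figure D4:**
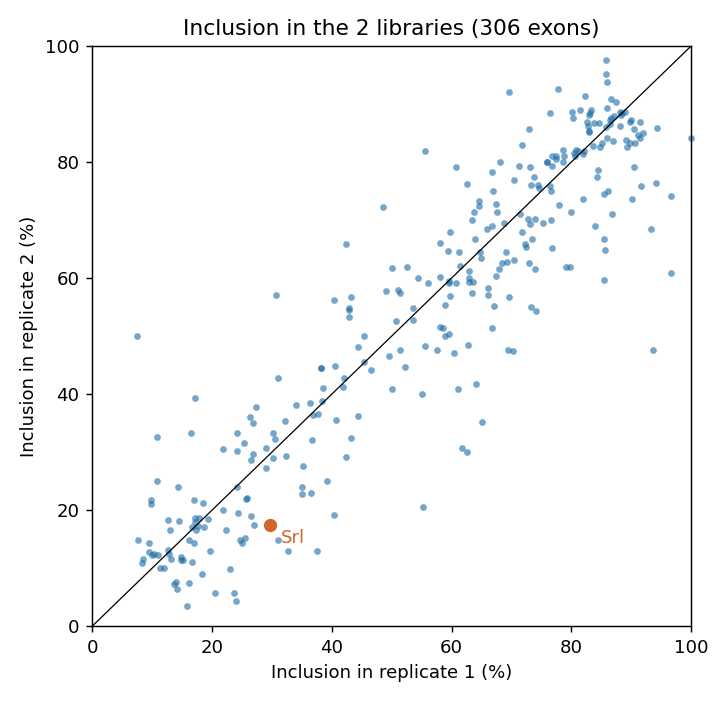
Inclusion in replicate 1 (x axis, percent) against replicate 2 (y axis, percent) for the 306 in-frame cassette exons that could be tested, with the line of equality; the exon of Srl that passed the test is marked. Points lie along the line with a median absolute difference of 6.0 points.

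The Srl reads fell into different classes of model in the libraries. In replicate 1, 2887 of its 3317 skipping reads were assigned to incomplete models, and in replicate 2 none were, while 880 of 1001 were in models with a new combination of known sites. Leaving out incomplete models therefore removes most skipping reads of replicate 1 and none of replicate 2, and gives 76.4% and 17.4%, values that are not comparable between the libraries. Longer members also tended to be held more in replicate 1, the library with longer models: the median difference was 0 points in 103 tested members of at most 60 bases, 0.32 points in 150 of 61 to 150 bases, and 3.09 points in 53 members over 150 bases, 37 of which were higher in replicate 1. The part of read length in the Srl difference was not tested.

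Because a long read holds several exons, the joint use of members in a molecule could be counted. Pairs of cassette exons in a gene with at least 20 reads informative for both were tested with Fisher's exact test, adjusted over all 496 such pairs of any length, and a call also needed the same direction in each library. Of 293 pairs of members in 127 genes, 50 were called (17.1%), beside 37 of 203 pairs with an exon of another length (18.2%) and 87 of all 496 (17.5%). In 46 of the 50 the exons were used together (15.7% of the pairs tested, beside 13.9% of all 496 and 11.3% of the 203) and in 4 apart (1.37%, beside 3.63% and 6.90%). Counted in replicate 1 alone, 34 pairs of 233 were called, and in replicate 2 alone 9 of 90. With skipping by any junction that spans the exon 349 of 800 pairs were called, and over Known models 7 of 19. At an unadjusted p under 0.05 by the exact test 67 of the 293 were called. Neb gave 17 of the calls from 36 pairs that share reads, and outside Neb 33 of 257 were called (12.8%). In 17 of the 46 pairs used together, most reads that held neither exon left out both by 1 junction, and in 29 none did, so that the choices were made at separate junctions.

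The pair with the most reads was the Mybpc1 exon of 42 bases and the block that begins with the 39-base exon. Among 2858 joint reads, 1778 held both, 694 the first, 146 the second and 240 neither, the last always by 1 junction. The 39-base exon was in 71.9% of reads with the 42-base exon and in 37.8% of reads without it (Fisher's exact test, adjusted p = 2.02e-35). Both libraries showed this, with 72.8% against 39.9% in replicate 1 and 67.9% against 27.7% in replicate 2.

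In Fermt2 the choices were made at separate junctions. Its 33-base and 21-base exons, 13682 bases apart, were both in 91 reads and both out in 50, with 11 reads holding the first alone. No read held the 21-base exon without the 33-base exon, and 0 of 50 allows a share of up to 6% (Fisher's exact test, adjusted p = 9.25e-28). Among 152 reads that cover all 3 members, 68 held the outer exons without the 24-base exon, 23 held all 3, 50 held none and 11 held the first alone.

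Other pairs used together, by Fisher's exact test in the same adjusted fit, covered several pathways. In Eef1d, a translation elongation factor subunit, the 57-base exon was in 65.3% of reads with the 72-base exon and 31.6% of reads without it (adjusted p = 3.50e-05 by the exact test). Mprip, a myosin phosphatase scaffold, joined a 108-base exon and a 66-base exon with a stop codon that lie 30053 bases apart (65.5% against 25.6%). App, the amyloid precursor protein, showed 64.8% against 34.4% over 174 reads, and Exoc7, an exocyst subunit, 64.4% against 23.3% over 117. In Lrrfip1 the 60-base and 93-base exons, 25349 bases apart, were both in 125 of 145 reads and both out in 17, but none of their skipping reads joins the sites that these exons mainly use.

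**Figure D5:**
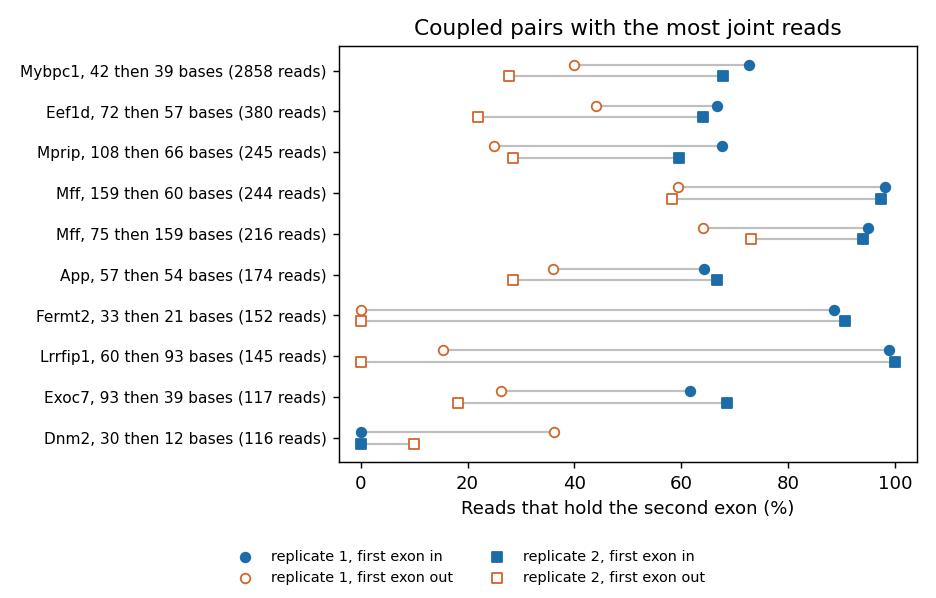
Percent of reads that hold the second exon of a pair (x axis) when the first exon is in (filled) and when it is out (open), in replicate 1 (circles) and replicate 2 (squares), for the 10 coupled pairs with the most joint reads. The filled points lie to the right of the open points in 9 pairs and to the left in Dnm2.

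The 4 pairs used apart were in Dnm2, Osbpl9, Dysf and Ppfibp1. In Dnm2 the 30-base exon was in 49 of 116 reads and the 12-base exon in 19, and no read held both. 0 of 49 allows a share of up to 6.12% (Fisher's exact test, adjusted p = 0.000129). The remaining 48 reads held neither. In Osbpl9, an oxysterol-binding protein, 2 of 93 reads held both a 69-base and a 39-base exon, 42 the first and 20 the second. In Dysf the 42-base exon was in all 39 reads without the 93-base exon and in 2 of 7 reads with it. In Ppfibp1, liprin-beta-1, 13 of 38 reads held the first exon, 18 the second and none both.

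Whole-read patterns in genes with several members show how these choices combine. In these patterns, as in those of Fermt2 above, an exon is out wherever a read does not hold that exact exon. This includes reads that are not informative for the exon. A read with the overlapping 42-base Mff member therefore counts as without the 159-base exon. Over the 4 nonoverlapping members of Mff, 259 reads fell into 11 patterns. The most frequent, 102 reads (39.4%), held the 75-base, 159-base and 60-base exons without the 33-base exon, 51 (19.7%) held the 159-base and 60-base exons, 37 (14.3%) the 60-base exon alone and 25 (9.65%) none. The 60-base exon was in 97.8% of reads with the 159-base exon and 59.0% of reads without it (Fisher's exact test, adjusted p = 3.12e-12), and the 159-base exon in 94.6% of reads with the 75-base exon and 67.8% of reads without it (adjusted p = 3.63e-06 by the same exact test). In Neb, 71 reads covered all 9 members and fell into 19 patterns, of which the most frequent held exon 149 alone (11 reads) or none of the 9 (9 reads). All but exon 147 was seen in 7 reads, all of replicate 1, and the 114-base exon 140 alone also in 7, of which 5 and 2 by library. The 9 members add up to 888 bases. In Mlip 65 reads covered all 8 members and fell into 40 patterns, the most frequent of which, all but the last exon, was seen in 6 reads.

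Counts of members in other genes varied as well. There were 461 genes with 1 member, 96 with 2 and 44 with 3 or more. Ktn1, kinesin-binding kinectin, had 4 members of 84, 72, 69 and 87 bases at 19.5%, 72.5%, 76.0% and 54.0% pooled. Slmap had 5 members and 1 coupled pair of 10, 2 exons of 51 bases that lie 443 bases apart. Pxn, paxillin, had 4 members. Of 109 reads informative for its unannotated 831-base exon and its 102-base exon, 60 held both, 9 each exon alone and 31 neither, the last always by 1 junction (Fisher's exact test, adjusted p = 3.01e-10). Rapgef1, an exchange factor for Rap1, had 4 members of 153, 258, 96 and 114 bases, and 3 of its pairs were coupled, all used together.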

How the data were processed

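Per the notes deposited beside the files, reads were aligned to mm10 with the GENCODE M21 annotation, and the authors' TALON models and whole-number read counts per model were deposited for each library, listing models with at least 1 read (aligner and TALON version: not given in the sources used here). Read counts were used as deposited, without scaling, except for CPM of marker genes. Inclusion, skipping and joint reads were summed over models of the classes Known, NIC (new combinations of known sites), NNC (with an unannotated site) and ISM (incomplete matches), so reads broken before an exon are not informative for it. Shares carry 95% Wilson intervals, and intervals, p-values and limits of a count of 0 (3 reads) cover counting error only; the spread between 2 libraries may be technical. Libraries and pairs were compared with Fisher's exact test and Benjamini-Hochberg adjustment (Python 3.11.15, numpy 2.4.6, scipy 1.17.1, statsmodels 0.14.6). The code was also run on simulated reads without added spread between libraries and on simulated pairs of a fixed depth. These settings are simpler than the data, so they do not show the error rates here. The named exons were the 20 with the most reads, up to 6 per gene list, those called, the 10 coupled pairs with the most reads, those at the window's limits, the 5 longest and shortest, and those of genes with 3 or more members. Bnip3l, Camk2b, Clta, Klc1, Nap1l4, Opa1, Osbpl9, Tln2, Tnnt3, Tpm1, Txnl1, Vcl and Zyx fall outside this rule and were chosen after their values were seen. The members and lists were chosen with earlier results of these data known. Sequences of unannotated exons and introns were not used here. Alternatives were other skipping junctions, model classes, read minimums and windows, and each library alone.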

Additional observations from a re-analysis of the deposited data

How the results depend on the processing

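The number of in-frame cassette exons (810) was 241 over Known models only (with splice sites taken from those models alone), 384 with at least 50 informative reads, 1225 with at least 10, and 322 to 604 in each library alone. The share of lengths divisible by 3 among cassette exons (59.69%) was 56.48% with skipping by any junction that spans the exon, 65.49% over Known models, 63.68% with 50 reads, 54.96% with 10 reads, 54.21% in a window of 5 to 95%, and 59.85 to 63.71% in each library alone. Median inclusion (57.91%) was 55% over Known models and 61.67% in the 5 to 95% window.

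Against 1 exon called between the libraries, 0 were called with a limit of 20 points, 3 with spanning junctions, 3 over full splice chains, 0 over Known models and 4 when adjusted over cassette exons alone. Against 50 coupled pairs, 349 of 800 were called with spanning junctions, 7 of 19 over Known models, 22 of 150 when unannotated chains needed 2 reads, 33 without Neb, and 9 to 34 in each library alone. The causes were not tested; fewer pairs could be tested in the smaller sets. The direction of pairs was not compared across settings. Of 231 named exons, 90 of the 130 that Known models could measure moved by more than 1 SD there, 29 over full chains and 31 with spanning junctions. When unannotated chains needed 2 reads 66 of 226 moved, without replicate 1 94 of 222, and without replicate 2 5. The SD is that of the 2 libraries, and pooled inclusion weights each library by its reads. Whether an exon moves when a library is left out therefore depends mainly on that library's share of its reads. The counts without a replicate thus do not show how stable the values are.

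The settings without Neb, without end variants, with main sites only and with adjustment over cassette exons were chosen after seeing the data. No paired analysis was possible because both libraries belong to 1 group. Depth limits the library comparison: 504 of 810 exons had fewer than 20 reads in a library.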
